A study of Homo sapiens with 3 samples.

Results

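Stable T47D cells carrying hairpin 1 against the long noncoding RNA ERINA were compared with T47D cells carrying hairpin 2 against the same RNA. The comparison asked which gene families differed between the hairpins in the direction of the deeper loss of the target with hairpin 1, and which did not follow that grading. Of the 58039 genes listed, 9272 entered: those with a mean of at least 5 FPKM over the 3 libraries of the study, an FPKM above 0 and a quantification status of OK in each. FPKM is the number of sequenced fragments scaled to transcript length and library size. At that filter DCAF1, with a mean of 5.0002 FPKM, was just inside, and PAX6, with a mean of 4.99 FPKM, was just outside.

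T47D is a human breast cancer line of the luminal, estrogen receptor-expressing type. In the protocol hairpins were carried into the cells by lentivirus with polybrene, and stable cells were kept with puromycin. The 3 groups are a control, called shCtrl in its description while its shRNA field reads None, an ERINA knockdown with shRNA1 (here hairpin 1) and an ERINA knockdown with shRNA2 (here hairpin 2). Each group is 1 library, 2 of the 3 libraries being compared here, so no difference has a replicate check, no test was made, and a difference between hairpins cannot be told apart from a difference between selected cell pools or libraries. No sequence of either hairpin was used here.

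As background, a short hairpin RNA is processed into a small RNA that guides the silencing machinery to transcripts with a matching sequence. A pair of hairpins against 1 target share that target but not their other matches, so genes that depend on the target are often looked for among those that follow its level with both. Many genes of dividing cells are held under shared control: mitotic genes are repressed in resting cells by a complex that binds the cell cycle genes homology region, and interferon-stimulated genes are switched on by STAT and IRF factors at a short response element.

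ERINA is a RefSeq synonym of LINC00992 (ENSG00000248663), a long intergenic noncoding RNA at chr5:117415509-117546298 on the plus strand of GRCh38. LINC00992 was listed at 63.4 FPKM in the control (deposited bounds 38.4 to 88.5), at 5.21 FPKM with hairpin 1 (2.09 to 8.34) and at 8.91 FPKM with hairpin 2 (4.04 to 13.8). The level left was 8.22% of the control with hairpin 1 and 14.0% with hairpin 2. Both hairpin libraries lay below the control bounds. Hairpin 2 was 1.71-fold above hairpin 1, with bounds that overlapped, so the grading of the target itself was smaller than the deposited uncertainty.

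The luminal identity of the cells was present in all 3 libraries: the 9 luminal markers lay between 16.5 and 5210 FPKM. Of 8 immune and endothelial markers 6 were below 1 FPKM in every library, and their summed level was 4.14 FPKM in the control, 2.07 with hairpin 1 and 2.43 with hairpin 2. Of 7 basal and myoepithelial markers 4 were below 1 FPKM everywhere, with sums of 13.5, 11.9 and 14.3 FPKM in the same order. Of 7 mesenchymal and stromal markers 4 were below 1 FPKM everywhere, with COL3A1 listed at 0, and the sums were 20.8, 13.0 and 15.6 FPKM. In bulk RNA, fewer cells of a type and less RNA per cell cannot be told apart.

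The hairpin libraries were close to each other. Differences are given as hairpin 1 minus hairpin 2 on log2(FPKM + 0.5), where a negative value means a lower level with hairpin 1; this scale understates the change of genes with low values. Over the 9272 genes the median difference was -0.0063, and the middle 50% of genes lay between -0.11 and 0.09. Genes at least 0.32 apart on this scale are counted below as past the threshold. They were 405 genes (4.37%) lower with hairpin 1 and 254 genes (2.74%) higher. At 1.5-fold the counts were 48 (0.518%) and 39 (0.421%). By any amount, 51.7% of genes were lower and 48.3% higher with hairpin 1. The deposited bounds of the hairpins overlapped for every gene of the set, so the count of separate bounds was 0 (0%). The bounds are wide: their median width to each side was 49.7% of the FPKM with hairpin 1 and 49.8% with hairpin 2. The direction of small differences depends on the scaling. The total FPKM was 860240 with hairpin 1 and 808451 with hairpin 2, and bringing the libraries to the same total moves each difference by about -0.09, which gives 828 lower and 125 higher genes past the threshold. Families are therefore read against the median of all genes, which moves with them. A family median that changes sign with equal totals keeps about the same distance from all genes.

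The difference between hairpins grew with the distance from the control. Genes were grouped by the mean of their 2 changes from the control. This axis includes the control library, whereas the difference between hairpins does not. Both hold the values of the same 2 hairpin libraries, so the grouping is no independent check of the grading. Among the 136 genes whose mean change lay between -1.5 and -1, the median difference was -0.31, and 90.4% of them were lower with hairpin 1. Between -1 and -0.5 the median difference was -0.17 over 721 genes, and within 0.25 of the control it was -0.0007 over 5338 genes. On the higher side it was 0.13 over the 441 genes between 0.5 and 1, and 0.20 over the 54 genes between 1 and 1.5. Genes that stood further from the control with both hairpins thus stood further with hairpin 1 as a rule, in both directions. The outermost bins were less regular, with a median of -0.25 over the 25 genes at or below -1.5 and of 0.12 over the 20 genes at or above 1.5.

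**Figure D1:**
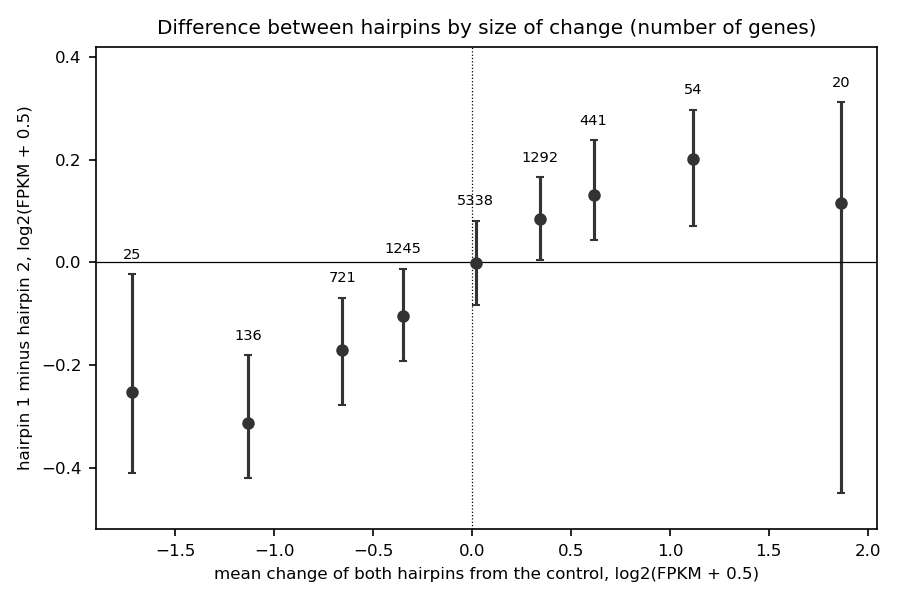
Median difference between hairpins (hairpin 1 minus hairpin 2, log2(FPKM + 0.5); bars give the 25th to 75th percentile of genes) against the mean change of both hairpins from the control, with the number of genes above each bin. The medians run from -0.31 among the 136 genes between -1.5 and -1 to 0.20 among the 54 genes between 1 and 1.5, and lie at about 0 near the control.

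A line through the origin (the major axis) of the change with hairpin 1 against the change with hairpin 2 had a slope of 1.246. Both changes share the control library, so the slope serves as a reference line only. Its value depends on how the line is drawn, at 1.09 by least squares of hairpin 1 on hairpin 2 and 1.36 by the inverse regression. LINC00992 lay on the line, with changes of -3.48 and -2.76 and a departure of -0.04. Of 120 protein-coding genes at least 2-fold from the control in the same direction with both hairpins, 102 were further from it with hairpin 1, namely 74 of 86 lower genes and 28 of 34 higher genes. For comparison, 83.6% of all genes with a mean change between -1 and -0.5 were lower with hairpin 1. Between 0.5 and 1, 82.1% were higher with it, so the counts do not set these genes apart. At least 2-fold below the control were 236 genes (2.55%) with hairpin 1 and 101 (1.09%) with hairpin 2. At least 2-fold above it were 108 (1.16%) and 67 (0.723%). Deposited bounds wholly below the control bounds were found for 64 genes (0.69%) with hairpin 1 and 25 (0.27%) with hairpin 2, and wholly above them for 14 (0.151%) and 6 (0.0647%).

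**Figure D2:**
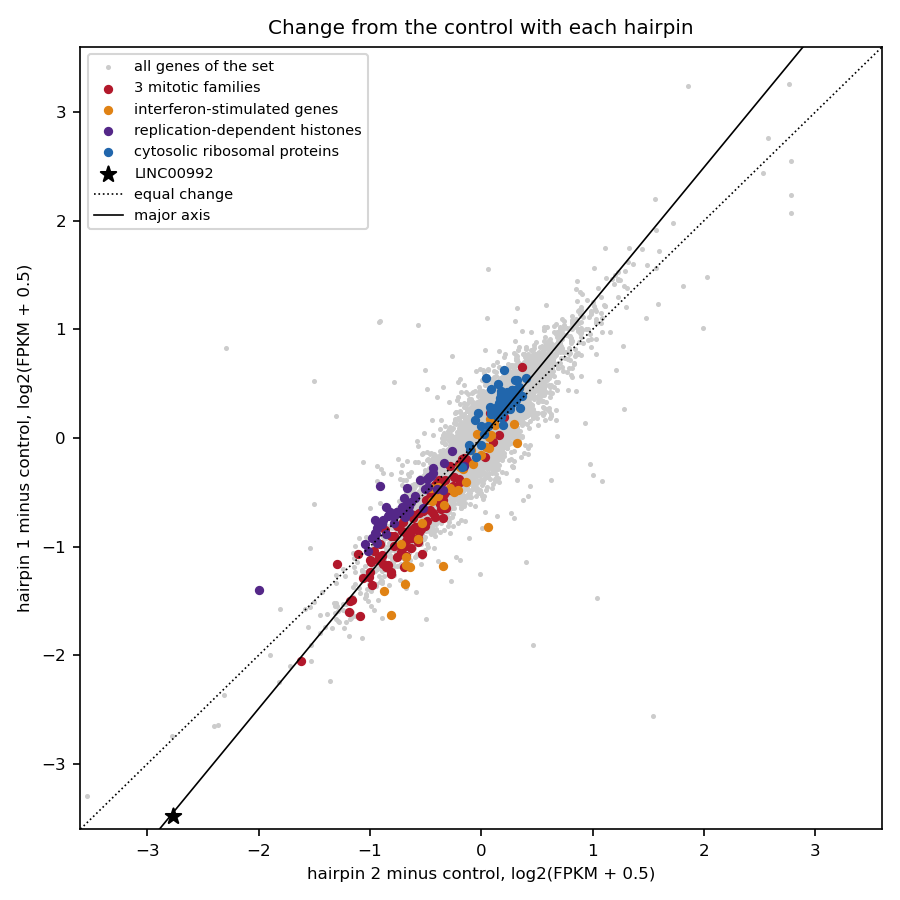
Change from the control with hairpin 1 against the change with hairpin 2 (log2(FPKM + 0.5)) for the genes of the set, 1 point per gene, with 2 genes outside the axes; the solid line is the major axis with slope 1.246 and the dotted line marks equal change. Mitotic genes lie along the solid line, most interferon-stimulated genes below it, and 49 of 51 histone genes above it.

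Gene lists of 50 families were placed on this scale, 48 of them with at least 5 genes in the set. A family is called shifted where its median lay at least 0.10 from the median of all genes. By that measure 9 families were lower with hairpin 1 and 3 were higher. The lower ones were 3 families of mitosis, interferon-stimulated genes, genes of DNA repair by recombination, p53 targets, enzymes of deoxynucleotide synthesis, genes of the extracellular matrix and its receptors, and 5 basal markers. The higher ones were ribosomal proteins of the cytosol, a list of YAP and TEAD genes with their targets, and keratins. A gene can stand in more than 1 family: 59 of the 1418 genes in any family did. Counts of members below are to be read against all genes, of which 51.7% were lower with hairpin 1. Past the threshold, 4.37% of all genes were lower and 2.74% higher.

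**Figure D3:**
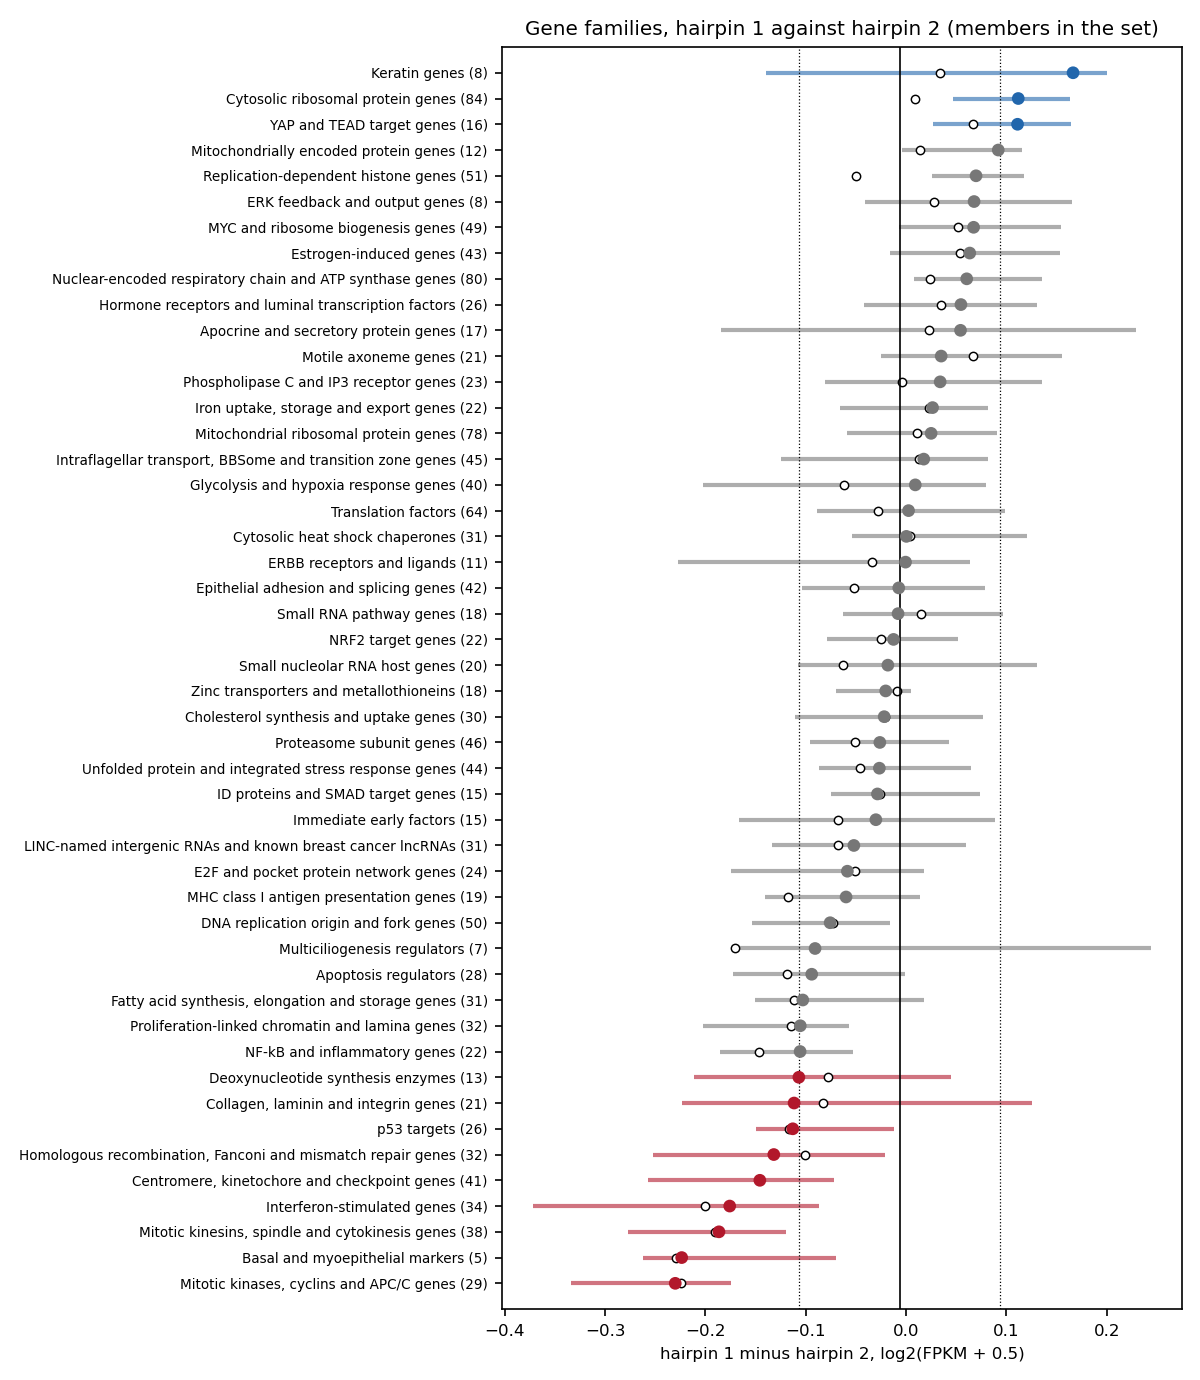
Median difference between hairpins (hairpin 1 minus hairpin 2, log2(FPKM + 0.5)) for each family with at least 5 genes in the set, with the number of genes in brackets; filled points are medians, bars the 25th to 75th percentile of genes, and open points the median after removing the trend with level, transcript length and GC content. The solid vertical line is the median of all genes and the dotted lines lie 0.10 to each side; families beyond them, 9 lower (red) and 3 higher (blue), are called shifted.

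Mitotic genes were lower with hairpin 1 almost throughout. The 3 families of mitosis together had 108 genes in the set, of which 102 were lower with hairpin 1, with a median difference of -0.20. Past the threshold of 0.32 were 19 of them (17.6%) on the lower side, against 4.37% of all genes, and none on the higher side. Their median change from the control was -0.81 with hairpin 1 and -0.56 with hairpin 2, and their median departure from the reference line was -0.06. With hairpin 1, 10 of the 108 had bounds wholly below the control bounds, against 0.69% of all genes. With hairpin 2 1 did, against 0.27% of all genes. The grading of the mitotic genes therefore followed that of all genes that were lower than in the control. The slight excess is relative to this line and depends on how the line is drawn.

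Kinases, cyclins and proteins of the anaphase-promoting complex (APC/C), the machinery that drives entry into mitosis and exit from it, had the lowest median of any family, at -0.23 over 29 genes, 27 of them lower with hairpin 1. PLK1, a kinase needed for spindle assembly and for entry into mitosis, was at 37.2 FPKM in the control (bounds 22.7 to 51.6), 11.6 with hairpin 1 (6.28 to 17.0) and 17.2 with hairpin 2 (9.57 to 24.9). PLK1 was thus lowest with hairpin 1, where its bounds were clear of the control, while those with hairpin 2 overlapped both. CCNB2, cyclin B2, was at 79.4, 33.4 and 44.9 FPKM in the order control, hairpin 1 and hairpin 2, the order used from here on. TOP2A, the topoisomerase that untangles sister chromosomes, was at 144.0 FPKM (93.3 to 194.8), 67.4 (44.2 to 90.6) and 90.1 (57.1 to 123.2), and again only the hairpin 1 bounds were clear of the control. PTTG1, securin, the inhibitor of separase, was at 282.0, 139.8 and 182.4 FPKM. In the other direction stood ESPL1, separase itself, at 16.1, 6.90 and 6.26 FPKM. CDC25B, a phosphatase that activates cyclin-dependent kinases, was at 11.9, 5.39 and 5.23 FPKM. For each the hairpin libraries were close, and with equal totals CDC25B would be slightly lower with hairpin 1 (-0.04).

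Kinesins, spindle and cytokinesis genes had a median of -0.19. Of 38, 36 were lower and 6 past the threshold, against 51.7% and 4.37% of all genes. DLGAP5, a spindle assembly protein, was at 51.6, 21.3 and 29.1 FPKM. ANLN, anillin, which organizes the contractile ring, was at 79.9 FPKM (40.3 to 119.5), 18.9 (7.50 to 30.2) and 25.7 (10.06 to 41.4), so the hairpin 1 bounds were clear of the control and the hairpin 2 bounds reached it. KIF20A, a kinesin required for cytokinesis, was at 41.3, 13.2 and 17.8 FPKM. HMMR, a spindle-associated protein, was at 96.4, 57.7 and 76.1 FPKM. These 4 were each 1.32-fold to 1.37-fold lower with hairpin 1. KIF1C, a kinesin of cargo transport that is grouped here by name, went against the family, at 38.0, 59.95 and 49.1 FPKM.

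Genes of the centromere, kinetochore and spindle checkpoint had a median of -0.15. Of 41, 39 were lower and 4 past the threshold, against 51.7% and 4.37% of all genes. OIP5, which helps load the centromeric histone, was at 14.7, 6.74 and 9.98 FPKM, with bounds that reach 0 in each library. CENPH, an inner kinetochore protein, was at 29.2, 12.6 and 17.8 FPKM. BUB1, a checkpoint kinase, was at 24.7, 10.7 and 13.6 FPKM. DSN1, a subunit of the outer kinetochore's MIS12 complex, was at 32.9 FPKM (20.3 to 45.6), 11.3 (6.62 to 16.006) and 14.3 (8.59 to 19.9996), the bounds of both hairpins clear of the control. SKA2, of the complex that couples kinetochores to microtubules, stood the other way at 80.7, 94.98 and 85.2 FPKM.

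The promoters of the mitotic genes are shown because they share a sequence that the grouping did not use. RefSeq promoters (GRCh38.p14, 250 bases before to 50 after the start) were matched for 88 of the 108 mitotic genes. The letters TTTGAA, the core of the cell cycle genes homology region, were searched on both strands. They were found in 52 of these 88 promoters (59.1%), against 15.4% of all 27305 RefSeq promoters of that length and 9.21% of those of the 7395 genes of the set with a match. The letters CCAAT were found in 62 of the 88 (70.5%), against 35.7% and 38.6%. Motifs were searched one by one, so a stretch of bases could count for more than 1. Among mitotic genes with TTTGAA the median difference was -0.22 and among the others -0.17, so the genes without a match were lower with hairpin 1 too. Past the threshold 17.3% of those with TTTGAA were lower, against 19.4% of those without. The 30-base windows below come from chr16:23678848-23678877 (PLK1), chr15:59105105-59105134 (CCNB2), chr7:36389830-36389859 (ANLN) and chr5:163460598-163460627 (HMMR), each on the plus strand, with every match in capitals and the last one ending 14 to 23 bases before the start. ANLN and HMMR hold 2 adjoining matches, the first in ANLN on the opposite strand.
PLK1: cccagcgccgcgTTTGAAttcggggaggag
CCNB2: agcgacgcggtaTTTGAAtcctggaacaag
ANLN: ctgaaaTTCAAATTTGAAcggctgcagagg
HMMR: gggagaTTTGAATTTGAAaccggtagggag
A match is a description of the letters and not a bound site. DLGAP5 held 3 matches in its promoter and TOP2A 2. A match in each lay further off, on the opposite strand, ending 103 bases (DLGAP5) and 145 bases (TOP2A) before the start. No match was found in the promoters of KIF20A, OIP5, BUB1, PTTG1 or DSN1, whose levels were graded in the same way.

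Other genes of the dividing cell were graded less. DNA replication genes, the helicase, origin and fork proteins, had a median of -0.08 over 50 genes, 39 of them lower. Their changes from the control were -0.46 with hairpin 1 and -0.38 with hairpin 2. ORC2, a subunit of the origin recognition complex, was at 8.66, 11.8 and 7.59 FPKM, and GINS4, of the replicative helicase, at 11.1, 7.02 and 10.7 FPKM. These 2 were the widest apart in the family and pointed in opposite directions, the library with hairpin 1 being highest for ORC2 and lowest for GINS4. The GINS4 bounds reached 0 with both hairpins. The E2F letters TTTGGCGC, on either strand, were in 7 of 42 matched promoters of this family (16.7%), against 0.659% of all promoters and 1.22% of those of the set, and in 4 of 88 mitotic ones.

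Recombination, Fanconi and mismatch repair genes, which mend broken or crosslinked DNA, had a median of -0.13. Of 32, 24 were lower and 4 past the threshold, against 51.7% and 4.37% of all genes. XRCC3, a protein of recombination repair, was at 13.3, 11.4 and 16.5 FPKM, so that the hairpins lay on opposite sides of the control. EME1, part of a junction-cutting nuclease, was at 7.72, 5.13 and 7.18 FPKM. FANCD2 and FANCI form the clamp of the Fanconi pathway. FANCD2 was at 15.6, 10.2 and 13.6 FPKM and FANCI at 32.1, 17.0 and 21.4 FPKM. PALB2, the partner of BRCA2, went the other way at 7.43, 9.67 and 8.84 FPKM. With the trend of transcript length, GC content and level removed, the family lay 0.0855 below all genes and no longer met the shift.

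Deoxynucleotide synthesis enzymes lay at the edge of the shift, with a median of -0.11. Of 13 genes 8 were lower, against 51.7% of all genes, so this count does not set the family apart. Past the threshold was 1, against 4.37% of all genes. That 1 was RRM2B, the p53-controlled small subunit of ribonucleotide reductase, at 34.2, 21.2 and 35.0 FPKM, low with hairpin 1 only. RRM2, the small subunit of cycling cells, was at 60.3, 19.7 and 24.5 FPKM, and DTYMK, thymidylate kinase, at 31.9, 20.6 and 25.2 FPKM. The nucleoside diphosphate kinases NME1 and NME2, neighbouring genes whose reads may be shared, were higher with hairpin 1 by 1.11-fold each. Chromatin and lamina genes of proliferating cells had a median of -0.11 over 32 genes and just missed the shift. Among them ANP32E, a chaperone that removes H2A.Z, was at 42.2, 13.0 and 18.3 FPKM, and HMGB1, an abundant chromatin protein, at 200.7, 57.4 and 73.0 FPKM.

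The replication-dependent histone genes departed from the line more clearly than any other proliferation family. These genes supply histones during S phase and carry no poly(A) tail. Of 51 in the set, 41 were higher with hairpin 1 than with hairpin 2, with a median difference of 0.07. Their median change from the control was nonetheless negative and alike with both hairpins, at -0.68 with hairpin 1 and -0.72 with hairpin 2. Relative to the line they had a median departure of 0.23, and 49 of 51 lay above it, where 47.2% of all genes did. The histone family thus stood at about the distance of the mitotic families from the control but lacked their grading. The sign of the difference itself is not settled: with equal totals the histone median was -0.02, and with the GC, length and level trend removed it was -0.05. The departure remained positive in each case, at 0.21 with equal totals and 0.12 with the trend removed. The median GC content of these transcripts was 57.7%, against 47.8% over all genes.

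HIST1H3D, a histone H3 gene, was at 39.8, 14.8 and 9.58 FPKM with bounds that reached 0 in all 3 libraries. HIST1H4J, a histone H4 gene, was at 38.3 FPKM (19.9 to 56.6), 28.1 (13.9 to 42.3) and 20.1 (9.25 to 30.9). Both were highest in the control and lowest with hairpin 2, with overlapping bounds. Histone genes within a class are near copies of each other, so how fragments were divided among them is uncertain. The letters TTTGAA were in 18 of 44 matched histone promoters (40.9%) and CCAAT in 38 (86.4%), so these letters were shared with the mitotic genes although the grading was not.

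Interferon-stimulated genes were lower with hairpin 1 by more than the reference line gives. Of 34 in the set, 32 were lower with hairpin 1, with a median difference of -0.18. Past the threshold 10 were lower, against 4.37% of all genes, and none was higher, against 2.74%. Their median change was -0.46 with hairpin 1 and -0.22 with hairpin 2. Relative to the line the median departure was -0.15, with 29 of 34 below it, where 52.8% of all genes were. After removing the trend with GC, length and level the median difference was -0.20. With hairpin 1, 7 members were at least 2-fold below the control, against 2.55% of all genes. With hairpin 2 none was, against 1.09% of all genes, a share at which few or none of 34 would be counted.

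IFI6, an interferon-induced membrane protein, was at 51.9 FPKM in the control (31.7 to 72.2), 29.3 with hairpin 1 (17.0 to 41.6) and 54.1 with hairpin 2 (33.3 to 74.98). Only the hairpin 1 library was low, and its bounds still overlapped the other two. IFIT1, which binds foreign RNA, was at 19.8, 8.45 and 15.5 FPKM. IFI27 was at 19.6, 5.99 and 10.95 FPKM. MX1, an antiviral GTPase, was at 51.4 FPKM (30.9 to 71.8), 19.97 (11.4 to 28.6) and 31.8 (19.3 to 44.2). For MX1 the hairpin 1 bounds were clear of the control, and the hairpin 2 bounds overlapped both. The family members were thus ordered control, hairpin 2, hairpin 1 for IFIT1, IFI27 and MX1, but not for IFI6. LGALS3BP, a secreted glycoprotein, was at 31.8, 35.9 and 33.5 FPKM, and BST2, tetherin, which holds budding viruses on the cell, at 139.0, 143.0 and 135.7 FPKM. Both were nearly level across the libraries, and with equal totals BST2 would lie on the lower side with hairpin 1 (-0.01).

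The promoters of these genes are shown for the same reason. The core of the interferon-stimulated response element, GAAA, any 2 bases and GAAA again, was searched on both strands and found in 18 of 31 matched promoters (58.1%), against 3.65% of all RefSeq promoters and 2.66% of those of the set. The 18 genes had a median difference of -0.26, and the 13 without a match had -0.16; TTTGAA was in 0 of the 31. The windows lie at chr1:27672266-27672295 (IFI6, minus strand), chr10:89392510-89392539 (IFIT1, plus), chr14:94110631-94110660 (IFI27, plus), chr17:78979962-78979991 (LGALS3BP, minus) and chr19:17405735-17405764 (BST2, minus). The capitals mark every match in the window: that in IFIT1 reads on the opposite strand, and BST2 holds 2 that overlap.
IFI6: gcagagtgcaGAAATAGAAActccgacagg
IFIT1: cactttccccTTTCGGTTTCcctaggtttc
IFI27: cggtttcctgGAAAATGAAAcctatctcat
LGALS3BP: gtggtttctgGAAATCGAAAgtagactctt
BST2: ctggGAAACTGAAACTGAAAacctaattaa
The last 2 genes carry the letters as the first 3 do, and their levels were not lower with hairpin 1. Of the 18 genes with a match, however, 16 were lower with hairpin 1. Past the threshold 44.4% of the 18 were lower, against 15.4% of those without a match, a gap that was not tested. MX1 also holds 1 match, whose window is not shown.

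**Figure D4:**
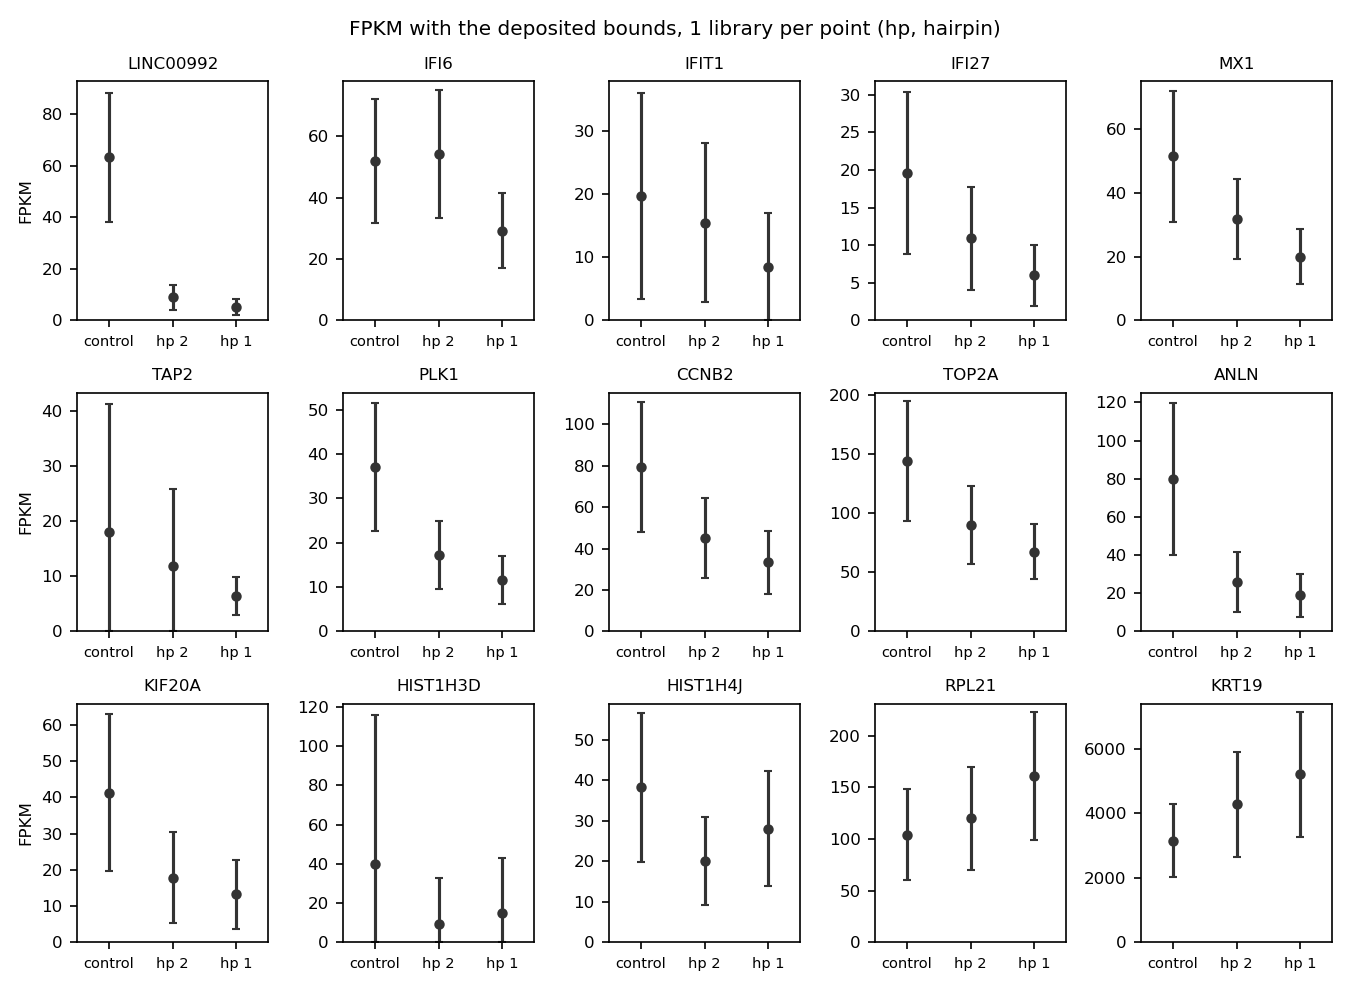
FPKM of 15 genes in the 3 libraries, ordered control, hairpin 2 (hp 2) and hairpin 1 (hp 1); each point is 1 library and the bars are the deposited bounds. PLK1 steps down from 37.2 to 17.2 and 11.6 FPKM, IFI6 is low with hairpin 1 only, at 29.3 FPKM, and HIST1H4J is lowest with hairpin 2, at 20.1 FPKM.

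Genes of antigen presentation by MHC class I, many of them interferon-responsive, had a median of -0.06 over 19 genes, with 3 lower past the threshold. TAP2, a subunit of the peptide transporter, was at 18.1, 6.45 and 11.9 FPKM, with bounds that reached 0 in the control and with hairpin 2. TAP2 was thus lowest with hairpin 1, and all bounds overlapped. NF-kB and inflammatory genes had a median of -0.11, just short of the shift. Of 22, 17 were lower and 4 past the threshold, against 51.7% and 4.37% of all genes. SAA1, an acute phase protein, was at 13.3, 5.09 and 7.85 FPKM and LCN2, an iron-binding lipocalin, at 31.1, 9.92 and 13.6 FPKM.

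Targets of p53 had a median of -0.11. Of 26, 20 were lower and 1, RRM2B, was past the threshold, against 51.7% and 4.37% of all genes. Unlike the mitotic families they stood near the control, with median changes of -0.13 with hairpin 1 and 0.01 with hairpin 2. PLK2, a kinase of the stress response, was at 455.4, 288.4 and 329.8 FPKM. Of the receptors for TRAIL, the death receptor TNFRSF10A was at 10.2, 7.40 and 8.95 FPKM and the decoy receptor TNFRSF10C at 10.1, 8.82 and 10.2 FPKM. AEN, an apoptosis-enhancing nuclease, went the other way at 12.8, 15.9 and 14.2 FPKM, as did ZMAT3, an RNA-binding regulator, at 6.599, 8.68 and 7.74 FPKM. Apoptosis regulators had a median of -0.09, with 22 of 28 lower and none past the threshold. BIRC5, survivin, which is also a mitotic protein, was at 78.0, 46.8 and 58.6 FPKM.

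Genes that tie epithelial cells to the matrix were mixed. Collagen, laminin and integrin genes had a median of -0.11 over 21 genes, with 14 lower. Past the threshold, however, 2 were lower and 3 higher with hairpin 1. ITGA5, an integrin chain for fibronectin, was at 8.51, 4.56 and 6.30 FPKM, and COL12A1, a collagen of fibril surfaces, at 41.7, 28.9 and 37.2 FPKM. LAMA5, a laminin chain of basement membranes, was at 10.6, 13.8 and 9.83 FPKM, and COL4A5, a collagen IV chain, at 5.96, 6.63 and 4.95 FPKM. The former pair was lowest with hairpin 1 and the latter pair highest, but the LAMA5 bounds reached 0 in each library. The 5 basal markers in the set had a median of -0.22 with none past the threshold, out of 23 listed. The other 18 had too low a mean, and the basal keratins KRT5, KRT14 and KRT17 were below 1 FPKM in every library. ITGA6, CD44 and ITGB4 also stand in the matrix family, so the 2 shifts are not separate. Of the 5, ITGA6, a laminin receptor chain, was at 10.8, 4.55 and 5.58 FPKM, and CD44, the hyaluronan receptor, at 14.5, 7.97 and 9.65 FPKM. SFN, a 14-3-3 protein, went the other way at 32.6, 22.3 and 20.9 FPKM.

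Keratins, the intermediate filaments of epithelia, had a median of 0.17 over 8 genes, but 3 of the 8 were lower with hairpin 1. KRT19, a simple-epithelial keratin, was at 3152, 5210 and 4281 FPKM, graded away from the control. KRT18 was at 1996, 2001 and 1770 FPKM and KRT7 at 110.8, 117.7 and 103.3 FPKM, each lowest with hairpin 2. KRT80 was at 11.2, 4.02 and 5.43 FPKM and KRT23 at 83.1, 46.0 and 54.7 FPKM, both lowest with hairpin 1. The family was therefore no unit, and with the GC, length and level trend removed its median was 0.03. Adhesion and splicing genes of epithelia had a median of -0.0073 over 42 genes. CDH1, E-cadherin, was at 234.1, 151.1 and 188.7 FPKM, and LSR, of tricellular junctions, at 29.8, 27.0 and 20.6 FPKM.

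Ribosomal proteins of the cytosol formed the largest family that was higher with hairpin 1. Of 84 in the set, 78 were higher, with a median of 0.11. Past the threshold were 4 (4.76%), against 2.74% of all genes, so the shift was common but small. Their median change from the control was 0.32 with hairpin 1 and 0.20 with hairpin 2. RPL21 was at 104.3 FPKM (60.5 to 148.1), 161.2 (99.4 to 222.9) and 119.9 (70.4 to 169.3). RPLP1, a stalk protein, was at 534.7, 729.7 and 566.9 FPKM. RPS26 was at 13.0, 19.3 and 13.4 FPKM. Each of these was highest with hairpin 1, and their bounds overlapped. RPL15, at 952.0, 841.6 and 922.8 FPKM, was the lowest of the 6 that stood the other way. Many processed copies of these genes exist, so their levels are uncertain. With the trend of GC, length and level removed the median was 0.01, so the shift moved with those properties of the transcripts. With equal totals the family median was 0.02. The median of all genes moved by about -0.09 as well, so the shift from all genes was kept.

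**Figure D5:**
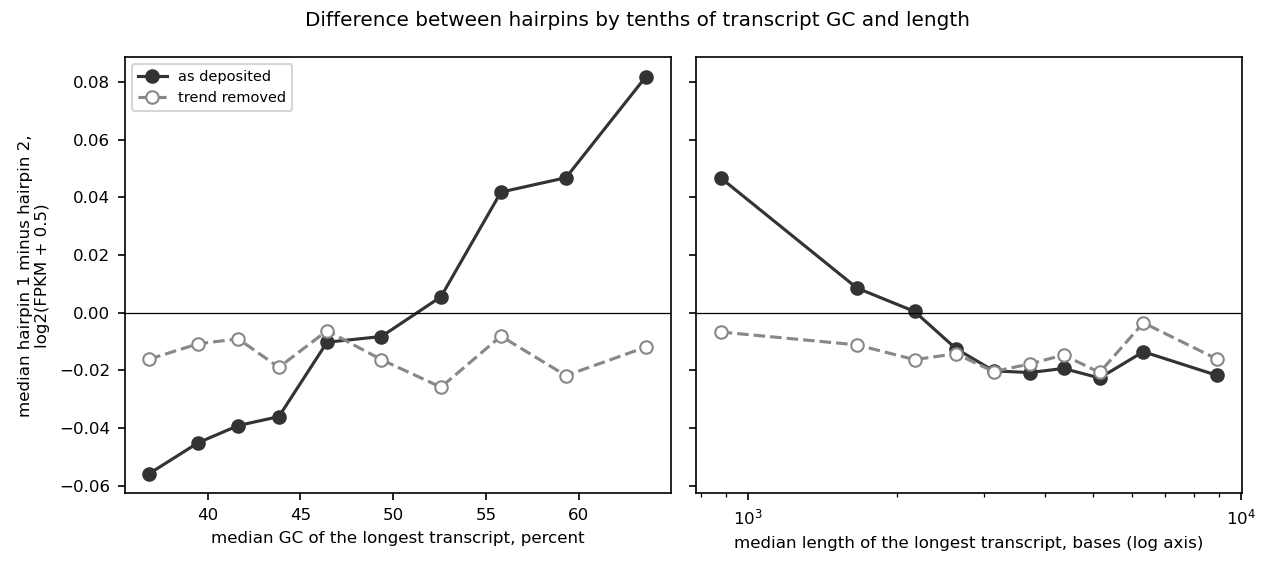
Median difference between hairpins (hairpin 1 minus hairpin 2, log2(FPKM + 0.5)) in 10 groups of equal size by GC content of the longest transcript (left) and by its length (right, log axis), as deposited (filled) and with the fitted trend removed (open). As deposited, the median runs from -0.06 in the tenth with the lowest GC content to 0.08 in the tenth with the highest.

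That trend touched the whole set. The median difference ran from -0.06 in the tenth of genes with the lowest GC content (median 36.9%) to 0.08 in the tenth with the highest (median 63.6%). From the control, the tenth with the highest GC content was at -0.10 with hairpin 2 and at 0.0019 with hairpin 1. Its part in each family was not tested, but the medians after its removal are known: the mitotic families kept -0.22, -0.19 and -0.15, the interferon-stimulated genes -0.20, and the ribosomal proteins, keratins and histones came to 0.01, 0.03 and -0.05.

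YAP and TEAD are the effectors of the Hippo pathway. The list of their targets also holds YAP1, WWTR1 and TEAD1 to TEAD4 themselves, so its median is no measure of targets alone. That median was 0.11. Of 16 genes 13 were higher and 2 past the threshold, against 48.3% and 2.74% of all genes. LPP, a focal adhesion protein, was at 16.9, 13.5 and 10.1 FPKM, lowest with hairpin 2, with bounds that reached 0 in each library. LATS2, a kinase that inhibits YAP, was at 5.05, 7.87 and 5.95 FPKM. PTPN14, another inhibitor of YAP, was at 7.45, 13.1 and 11.5 FPKM and FJX1 at 15.8, 21.8 and 19.3 FPKM. LATS2, PTPN14 and FJX1 were graded above the control and LPP below it, so the members shared a direction between hairpins but not against the control. WWTR1, the YAP paralog TAZ, went the other way at 11.4, 8.78 and 10.3 FPKM. With the trend removed the family lay 0.0813 above all genes and no longer met the shift.

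Energy and growth genes leaned the same way without meeting it. Nuclear-encoded respiratory chain genes had a median of 0.06, with 62 of 80 higher, and mitochondrially encoded ones 0.09, with 9 of 12 higher. NDUFS7, a subunit of complex I, was at 57.2, 74.1 and 57.3 FPKM and COX7B, of complex IV, at 71.5, 91.2 and 71.7 FPKM. Both were high with hairpin 1 only. MYC and ribosome biogenesis genes had a median of 0.07, with 33 of 49 higher. CAD, which starts pyrimidine synthesis, was at 9.71, 11.3 and 8.59 FPKM, and SRM, spermidine synthase, at 25.7, 37.5 and 29.9 FPKM. With equal totals the medians of the nuclear-encoded chain and of the MYC family were -0.03 and -0.02. The sign of these medians thus depends on the scaling, but both families stayed above the median of all genes. Mitochondrial ribosomal proteins and translation factors lay close to all genes, at 0.02 and 0.0025, and below 0 with equal totals.

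Estrogen-induced genes and luminal transcription factors were not graded by family. The estrogen-induced genes had a median of 0.06 over 43 genes and the luminal factors 0.05 over 26, each negative with equal totals (-0.02 and -0.03). SUSD3 was at 21.7, 10.1 and 13.5 FPKM, lowest with hairpin 1, while SIAH2, a ubiquitin ligase, was at 38.8, 51.4 and 41.1 FPKM, highest with it. SPDEF, a factor of luminal secretory cells, was at 78.4, 116.0 and 93.9 FPKM. MYB, a factor of luminal breast cancer and of cilia formation, was at 4.31, 10.003 and 7.98 FPKM. SPDEF and MYB were both graded upward from the control, hairpin 2 lying between the others.

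Regulators of multiciliogenesis, which direct cells to build many motile cilia, were mixed. Of 16 listed, 7 were in the set and 8 had too low a mean. FOXJ1, CDC20B and MYB, each under 5 FPKM in the control, passed the filter through the hairpin libraries, where they were high, so a median over the 7 says nothing of the family's distance from the control. PLK4, the kinase of centriole duplication, was at 6.54, 4.63 and 5.52 FPKM, below the control with both hairpins, and E2F4 was at 22.6, 27.1 and 23.6 FPKM, near it. E2F4, E2F5 and MYB lay above the line, by 0.18, 0.11 and 0.11, and the other 4 below it. FOXJ1, the main factor of motile cilia, was at 1.91 FPKM (0.763 to 3.07), 12.6 (7.60 to 17.6) and 13.4 (8.16 to 18.7). CDC20B, a gene of multiciliated cells, was at 1.13 FPKM (0 to 2.99), 9.07 (3.18 to 14.9) and 10.7 (3.49 to 18.0). In both genes each hairpin was clear of the control and hairpin 2 was slightly the higher, so the deeper loss of LINC00992 came with no higher level. Their departures from the line were -0.71 and -0.92. The axoneme genes that such factors switch on had a median of 0.03 over the 21 of 100 listed that were in the set, and -0.05 with equal totals. MORN4 was at 6.78, 9.83 and 7.30 FPKM, with bounds that reached 0 in each library. GAS8, of the dynein regulatory complex, was at 16.7, 19.9 and 15.2 FPKM.

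The remaining families lay within 0.10 of all genes, with single members far apart; with equal totals every median in this paragraph that is above 0 would be below it. Fatty acid genes had a median of -0.10 over 31 genes. ELOVL6, an elongase of saturated fatty acids, was at 11.02, 3.93 and 6.69 FPKM and ELOVL3 at 15.03, 8.48 and 11.3 FPKM, both lowest with hairpin 1. Cholesterol genes had a median of -0.02 over 30. STARD4, a sterol carrier, was at 11.1, 4.52 and 6.00 FPKM and HMGCS1, an early enzyme of the pathway, at 39.1, 14.9 and 19.3 FPKM. These 2 were graded although their family was not. Secreted proteins had a median of 0.05 over 17, with 4 lower and 1 higher past the threshold. GDF15, a stress-induced cytokine, was at 9.15, 2.57 and 4.70 FPKM and SLPI, a protease inhibitor, at 7.89, 3.33 and 5.90 FPKM. Glycolysis and hypoxia genes had a median of 0.0092 over 40. NDRG1, a stress-response gene, was at 37.6, 16.6 and 25.7 FPKM and ADM, adrenomedullin, at 9.83, 7.34 and 10.7 FPKM. GDF15, SLPI and NDRG1 were thus ordered as the target was, inside families that were not, whereas ADM was lowest with hairpin 1 and highest with hairpin 2. Proteasome subunits had a median of -0.03 over 46, with PSMA4 at 294.5, 110.9 and 147.6 FPKM. Unfolded protein and stress response genes had a median of -0.03 over 44, with MTHFD2, an enzyme of mitochondrial folate metabolism, at 166.7, 64.5 and 83.0 FPKM. Among phospholipase C and IP3 receptor genes, with a median of 0.03 over 23, ITPR1, a calcium channel of the endoplasmic reticulum, was at 2.47, 13.1 and 8.27 FPKM and ITPR2 at 7.79, 10.6 and 7.96 FPKM.

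Single members also stood apart in further families whose medians were near that of all genes. The E2F and pocket protein network, which times entry into S phase, had a median of -0.06 over 24 genes. CCNE2, cyclin E2, was at 30.1, 12.9 and 15.9 FPKM and E2F5, a repressive E2F factor, at 18.2, 37.9 and 30.8 FPKM. These 2 were graded in opposite directions from the control, each further with hairpin 1. Genes of intraflagellar transport, the BBSome and the transition zone, which every cilium needs, had a median of 0.02 over 45 genes (-0.07 with equal totals). BBIP1, of the BBSome, was at 10.6, 7.46 and 10.5 FPKM and CLUAP1, of the transport train, at 28.3, 26.01 and 32.3 FPKM, both lowest with hairpin 1. The BBIP1 bounds reached 0 in each library, so its order is poorly determined. Among translation factors EIF4E2, a cap-binding repressor, was at 40.3, 17.4 and 24.6 FPKM. KEAP1, the inhibitor of NRF2, was at 20.6, 23.99 and 19.1 FPKM and TXNRD1, thioredoxin reductase and an NRF2 target, at 182.3, 134.2 and 154.5 FPKM. KEAP1 was highest with hairpin 1 and TXNRD1 lowest, inside an NRF2 family with a median of -0.01 over 22 genes. TGFA, a ligand of the EGF receptor, was at 11.3, 3.77 and 4.80 FPKM, graded as the target was, while the 11 ERBB receptors and ligands had a median of -0.00053.

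The protein-coding genes widest apart between hairpins, among those with a mean of at least 10 FPKM, were often poorly determined. Among the lowest with hairpin 1 against hairpin 2 were IMMP1L, MPP6, RAB28, IMMP2L, IFI6, KIAA0101, IFIT1, TAP2 and IFI27. MPP6, RAB28 and IMMP1L had lower bounds of 0 in at least 2 libraries each. KIAA0101, which binds the replication clamp, was at 67.0 FPKM (23.0 to 111.1), 13.9 (0 to 29.2) and 25.8 (0.168 to 51.5). Highest with hairpin 1 were FBRSL1, AC005943.2, ACAP1, PRKAR1B, GAGE2A, HIST1H3D, TERF2, RELL2, CPAMD8 and RPS26. ACAP1, a regulator of ARF6, was at 17.1 FPKM (5.56 to 28.6), 30.2 (12.8 to 47.6) and 19.2 (6.85 to 31.5), and PRKAR1B, a regulatory subunit of protein kinase A, was at 7.78, 15.9 and 10.2 FPKM. In both the hairpin 1 library was the highest and all bounds overlapped. GAGE2A belongs to a family of near-identical copies.

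Genes that stood well away from the control with both hairpins, but not along the line, were few. Among protein-coding genes at least 2-fold from the control with both, those furthest beyond the line with hairpin 1 were KIAA0101, FSTL1, STK19, PLK1, ITPR1, SPATS2L, SDC2 and FAM171A2. FSTL1, a secreted glycoprotein, was at 14.5 FPKM (5.76 to 23.2), 3.67 (0.459 to 6.88) and 6.64 (2.19 to 11.1). SDC2, syndecan-2, was at 53.3, 16.8 and 24.1 FPKM. For FSTL1 both hairpins lay below the control value, and the bounds of both overlapped those of the control. Those falling short of the line, with a smaller change with hairpin 1 than the line gives, included IMMP1L, HIST1H3D, CDC20B, GATSL3, TGIF2-C20orf24, PLCB1 and FOXJ1. PLCB1, a phospholipase, was at 73.0, 10.5 and 10.2 FPKM, but its control upper bound of 1165 FPKM leaves that level undetermined. TGIF2-C20orf24 is a readthrough of overlapping genes. FOXJ1 and CDC20B, described above, were those of the genes listed here with both hairpins' bounds clear of the control.

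A few genes stood apart from the control with 1 hairpin only. This count was added after the values were seen. At least 1.5-fold below the control with hairpin 1 and within 1.1-fold of it with hairpin 2 were 7 genes (0.0755%), and the reverse held for 0 (0%). At least 1.5-fold above with hairpin 1 only were 12 (0.129%), and with hairpin 2 only 1 (0.0108%). The 7 were IFI6, RRM2B, GINS4, SPTLC3, PLS3, MGLL and the noncoding SNHG3. PLS3, an actin-bundling protein, was at 124.1, 65.4 and 114.7 FPKM. SPTLC3, a subunit of serine palmitoyltransferase, was at 9.94, 5.38 and 10.003 FPKM, and MGLL, a lipase of monoglycerides, at 13.9, 8.95 and 12.9 FPKM. In each the control and hairpin 2 libraries were close and hairpin 1 stood alone. Protein-coding genes above the control with hairpin 1 only were LMLN, MAP3K4, RELL2 and EIF4ENIF1. MAP3K4, a stress kinase, was at 5.36, 8.56 and 5.42 FPKM.

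Among noncoding RNAs no family was graded with LINC00992. The 31 LINC-named and known breast cancer RNAs in the set, LINC00992 among them, had a median of -0.05. NEAT1, the scaffold of paraspeckles, was at 14.5, 23.8 and 15.97 FPKM, highest with hairpin 1. Host genes of small nucleolar RNAs had a median of -0.02 over 20, and SNHG3, whose locus overlaps RCC1, was at 23.7, 9.61 and 23.4 FPKM with upper bounds of 200.6 FPKM in the control and with hairpin 2. SNHG17 was at 10.9, 18.7 and 12.6 FPKM. SNHG3 and SNHG17 were thus opposite in direction, and the bounds of SNHG3 reached 0 throughout.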

How the data were processed

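The deposited values are FPKM per gene and library with a lower and an upper bound and a status, per the file headers; the level of the bounds is not given in the sources used here. The submitters' processing notes list STAR, RSEM and the GRCh38 build without versions or roles. The table's columns are laid out as Cufflinks writes them, although the notes do not list it. Gene types, overlaps, lengths and GC content came from GENCODE release 29 (57435 of 58039 identifiers, 99.0%), and promoters from RefSeq (GRCh38.p14), with 7395 of the 9272 genes matched. How reads were counted by strand is not given, so overlapping genes are uncertain.

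Differences were taken on log2(FPKM + 0.5), with no further scaling. With 1 library per group no test was made. The members, families and thresholds were chosen with earlier results of these data known. Named genes are LINC00992; from each shifted family up to 4 members along its median and 2 against; up to 2 from other families; the 10 widest apart in each direction among protein-coding genes with a mean of at least 10 FPKM; and the 8 largest departures each way. Line fitting was checked on simulated data. Computation used pandas 2.3.3 and numpy 2.4.6 under Python 3.11.15, and figures matplotlib 3.10.9. A few genes that this rule names are not reported here.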

Additional observations from a re-analysis of the deposited data

Results flagged for a closer look

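Among protein-coding genes, 2 lay on opposite sides of the control with the hairpins, each by at least 0.32 on the log2 scale, with a mean of at least 10 FPKM; the difference between hairpins was not tested. IMMP2L, a subunit of the mitochondrial inner membrane peptidase, was at 12.9 FPKM in the control, 9.35 with hairpin 1 and 17.6 with hairpin 2, a difference of -0.876 (hairpin 1 minus hairpin 2, log2(FPKM + 0.5)). AC005943.2, which overlaps MBD3 and UQCR11 on the same strand, was at 12.3, 16.1 and 9.24 FPKM, a difference of 0.773. The lower bounds in the control and with hairpin 2 were 0 for both genes. In the whole set 21 genes lay on opposite sides by that much, 5 of them protein-coding.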

How the results depend on the processing

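No paired analysis was possible because each group has 1 library, and for the same reason no replicate could be left out. Past 0.32 in log2 difference, the genes higher and lower with hairpin 1 numbered 631 and 896 at a mean of at least 1 FPKM, 87 and 117 at 20, 1882 and 2090 with no filter, 125 and 828 with equal totals, 39 and 48 at 1.5-fold and 0 and 0 by separate bounds; fewer or more genes enter under the filters. The slope was 1.09 by least squares of hairpin 1 on hairpin 2. Families that fell under the shift of 0.10 from all genes were deoxynucleotide enzymes (-0.0976 with a pseudocount of 1, -0.0969 at a mean of at least 1, -0.0996 at 20, -0.0987 among protein-coding genes, -0.0633 with the trend removed), p53 targets (-0.0989 at 1), matrix genes (-0.0747 at 20, -0.0130 with no filter, -0.0683 with the trend removed), keratins (0.0231 with no filter, 0.0490 with the trend removed), basal markers (-0.0951 with no filter) and, with the trend removed, repair genes (-0.0855), YAP targets (0.0813) and ribosomal proteins (0.0235). Others gained the shift: NF-kB genes (-0.102 with a pseudocount of 0.1, -0.129 at 1, -0.111 at 20, -0.139 with no filter, -0.132 with the trend removed), chromatin genes (-0.1003 with a pseudocount of 0.1, -0.102 at 20, -0.105 with no filter), mitochondrially encoded genes (0.104 at 1, 0.100011 among protein-coding genes) and, with the trend removed, multiciliogenesis regulators (-0.155), antigen presentation genes (-0.103) and apoptosis regulators (-0.104). No family median changed sign relative to all genes among the shifted families. The 3 mitotic families and the interferon-stimulated genes kept the shift under all 9 settings, at -0.307 to -0.132. The deposited bounds are wide for single genes. They give no spread for a family, whose members share 1 library per hairpin.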
